A study of Homo sapiens with 9 samples.

Results

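The genes of the proteasome were followed in RNA from SET2 leukemia cells with and without *DYRK1A* knockout. They were taken as the protein-coding genes whose symbol is PSM, a letter from A to G and a number, which gave 48 of the 60662 genes in the table. Of these, 46 had enough reads to be tested in each comparison. The testis subunit *PSMA8* had at most 1 read in a library and the thymus subunit *PSMB11* had none in any library, so neither was tested, and a count of 0 allows up to 3 reads, or 0.0502 to 0.0913 CPM across the libraries. The other subunit genes known by names outside this pattern, such as *SEM1* and *ADRM1*, are described with the genes outside the family.

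The proteasome degrades proteins tagged with ubiquitin. Its core particle is a stack of rings in which alpha subunits (PSMA) gate the entry and beta subunits (PSMB) carry the proteolytic sites. The regulatory particle caps the core, with a base of ATPases (PSMC) that unfold the substrate, further base subunits that bind ubiquitin chains, and a lid (PSMD) that removes the chains. Interferon-inducible beta subunits can take the place of the constitutive catalytic ones and so form the immunoproteasome, which favours peptides for MHC class I. PSME activators can cap the core in place of the regulatory particle, PSMF1 is known as PI31, and the PSMG chaperones assemble the core.

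SET2 is a *JAK2* mutant megakaryoblastic line, labelled as post-MPN AML and grown without drug treatment. Wild-type cells (WT, n = 3 libraries) were compared with *DYRK1A* knockout (KO) clones 11H1 (n = 3) and 14B5 (n = 3). The clones came from cells nucleofected with a Cas9 ribonucleoprotein, each from a single sorted cell carrying only out-of-frame indels, so the libraries of a clone share its founder. Each clone was set against WT. Whether the WT libraries came from a single-cell clone is not given in the sources used here, and clonal origin and editing cannot be told apart in these comparisons. Both clone comparisons share the WT libraries. The labels do not say whether libraries of a group came from separate cultures, and p values then measure only the spread between these libraries.

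Libraries held 32347779 to 60272245 expected counts, and the proteasome genes took 0.734% to 0.857% of them. Levels are given as CPM, counts scaled to a common total on TMM-adjusted library sizes, and log2FC is the edgeR log2 fold change. Its standard error (±) was derived as the absolute log2FC divided by the square root of F from the edgeR quasi-likelihood F test. A gene was called at a Benjamini-Hochberg adjusted p under 0.05 over all genes tested. *DYRK1A*, the targeted gene, read 197, 196 and 218 CPM in WT, 188, 191 and 192 CPM in 11H1 and 191, 182 and 174 CPM in 14B5, with a log2FC of −0.091 in 11H1 (adjusted p = 0.131) and −0.17 in 14B5 (adjusted p = 0.0278). RNA counts do not show a frameshift, so they do not check the knockout. The study's text reports a check of DYRK1A protein by western blot in its HEL and SET2 knockout and knockdown cells. Summed markers of megakaryoblasts and progenitors (8 genes) ran from 2183 to 2285 CPM in WT, 1580 to 1644 in 11H1 and 1604 to 1608 in 14B5, and *PF4* had no read in either clone. Lymphoid markers (4 genes) summed to 11.1 to 23.4 CPM, nearly all of it *CD79A*, and stromal markers (2 genes) to 0.268 to 2.34 CPM. Epithelial markers (2 genes) summed to 5.57 to 7.22 CPM in WT, 21.4 to 24.9 in 11H1 and 33.2 to 34.9 in 14B5, nearly all of it *CDH1*. The share of reads from mitochondrial genes was 3.54% to 6.03% for WT, 7.23% to 7.39% for 11H1 and 3.30% to 3.92% for 14B5. The part of these differences in the results was not tested, and the comparisons without mitochondrial genes gave the same numbers of called proteasome genes.

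In WT the 46 genes spanned a wide range per kb of transcript. *PSMB4*, a structural beta subunit, was the highest at 349.8 ± 23.4 CPM per kb (SD, n = 3), followed by *PSMB3* at 272 ± 16.8 and the alpha subunit *PSMA7* at 263 ± 10.2. The spreads of *PSMB3* and *PSMA7* overlapped, and that of *PSMB4* stood above both. The median was 171 CPM per kb for the 14 constitutive core genes and 90.5 for the 17 regulatory particle genes. The 4 core assembly chaperones had a median of 30.9, with *PSMG4* last of the tested genes at 3.91 ± 0.615 CPM per kb, and the base assembly chaperone *PSMD9* next to last at 15.5 ± 1.41. These values divide by the longest coding transcript in GENCODE v29, and the order depends on that choice: *PSMA6*, at rank 5 here, ranked 28 when all annotated exons were counted, whereas *PSMB4*, *PSMB3* and *PSMA7* stayed in the first 3 places.

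The log2FC of the proteasome genes covered a narrower range than that of all genes tested, which include genes with few reads. In 11H1, 29 of 46 were called (63.0%, against 64.6% of all genes tested), 11 higher (background 31.8%) and 18 lower (background 32.8%). In 14B5, 18 of 46 were called (39.1%, against 53.5%), 17 higher (background 24.9%) and 1 lower (background 28.7%). The standard deviation of log2FC over the proteasome genes was 0.27 in 11H1 and 0.14 in 14B5, where it was 1.02 and 1.10 over all genes. The median log2FC was −0.058 in 11H1 and 0.097 in 14B5, beside −0.0066 and −0.014 over all genes tested. Set directly against 14B5, 11H1 had 34 of 46 genes called (73.9%, against 63.7%), 32 of them lower (background 32.1%) and 2 higher (background 31.6%), with a median log2FC of −0.22. In bulk RNA, fewer cells of one kind and less RNA per cell cannot be told apart.

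**Figure D1:**
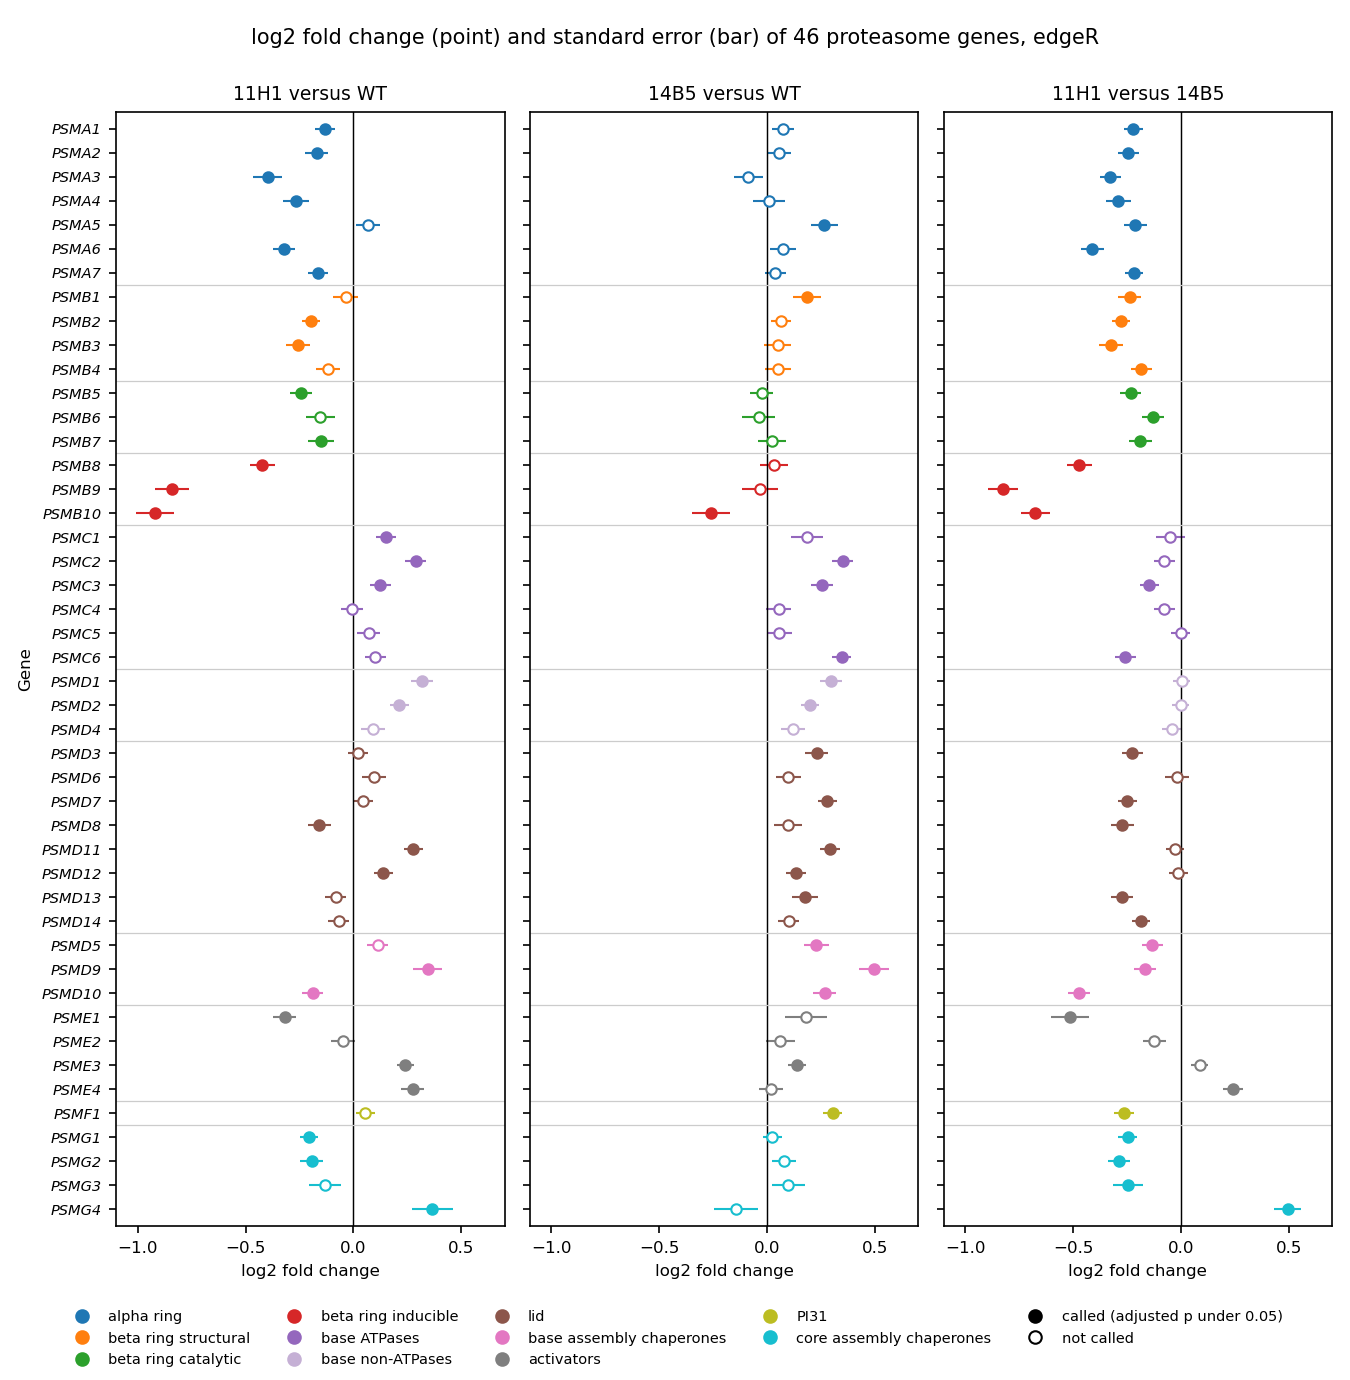
log2 fold change of the 46 tested proteasome genes (points, rows) with the standard error (bars), by role, for each clone against WT and for 11H1 against 14B5; filled points passed an adjusted p of 0.05 by edgeR. The inducible beta genes *PSMB9* and *PSMB10* lie farthest to the left in 11H1, at −0.84 and −0.92, and most 14B5 points lie to the right of 0.

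The constitutive core genes were lower in 11H1 and near WT in 14B5. None of the 14 rose and 10 fell in 11H1, where 32.8% of all genes fell, with a median log2FC of −0.17. In 14B5, 2 rose and none fell, with a median of 0.050. In the direct comparison all 14 were lower in 11H1 than in 14B5, where 32.1% of all genes tested were. Their log2FC ran from −0.41 to −0.13 with a median of −0.24, and *PSMB6* lost its call in 9 alternatives. Among the alpha genes, which form the outer rings, 6 of 7 fell in 11H1. *PSMA3* (ENSG00000100567.13, chr14:58244831-58272012, plus strand, GRCh38) read 168, 152 and 141 CPM in WT, 110.4, 114 and 124 CPM in 11H1 and 147, 141 and 151 CPM in 14B5. All 11H1 libraries lay below all WT libraries, and those of 14B5 overlapped WT (log2FC −0.40 ± 0.067, adjusted p = 0.000256 in 11H1, and log2FC −0.087 ± 0.066, adjusted p = 0.293 in 14B5). *PSMA6* (−0.32), *PSMA4* (−0.27), *PSMA2* (−0.17), *PSMA7* (−0.16) and *PSMA1* (−0.13) also fell in 11H1. The calls of *PSMA1* and *PSMA2* were lost in 4 and 3 alternatives. The exception was *PSMA5*, with a log2FC of 0.068 in 11H1 (adjusted p = 0.293) and a rise of 0.26 in 14B5 (adjusted p = 0.00535). *PSMA1*, *PSMA2* and *PSMA6* hold counts with a fractional part in all 9 libraries, which shows that reads were divided with other genes, and the exons of all 3 overlap another annotated gene.

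In the beta rings, 2 of the 4 structural and 2 of the 3 catalytic constitutive genes fell in 11H1, where 32.8% of all genes did. *PSMB3* (log2FC −0.26 ± 0.056, adjusted p = 0.00162) and *PSMB2* (log2FC −0.20 ± 0.043, adjusted p = 0.00159) are structural. *PSMB5*, the chymotrypsin-like subunit and the target of bortezomib, fell by 0.24 on the log2 scale (adjusted p = 0.00137). *PSMB7*, the trypsin-like subunit, fell by 0.15 (adjusted p = 0.0419), a call lost in 8 alternatives. *PSMB6*, the caspase-like subunit, had a log2FC of −0.15 that did not pass (adjusted p = 0.0644). None of the 3 constitutive catalytic genes was called in 14B5, where their log2FC ran from −0.040 to 0.021. *PSMB1* was the one structural gene that rose in 14B5 (log2FC 0.19 ± 0.065, adjusted p = 0.0349), a call lost in 6 alternatives.

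More regulatory particle genes rose than fell in each clone. In 11H1, 7 of 17 rose, a share not far above the 31.8% of all genes tested, and 1 fell, where 32.8% of all genes did, with a median log2FC of 0.096. In 14B5, 10 of 17 rose, where 24.9% of all genes did, and none fell, where 28.7% did, with a median of 0.18. Directly compared, none of the 17 was higher in 11H1 than in 14B5, where 31.6% of all genes tested were. Of the 17, 7 were lower, a share not far above the 32.1% of all genes. Per library, the median difference of the core genes from their WT mean was −0.22, −0.16 and −0.16 on the log2 scale in 11H1, against 0.073, −0.0018 and −0.092 in WT, while that of the regulatory genes was 0.063, 0.088 and 0.14 in 11H1 against 0.045, −0.022 and −0.042 in WT. The 11H1 libraries therefore lay below every WT library for the core and above every WT library for the regulatory particle. Those of 14B5, at 0.028, 0.028 and 0.14 for the core, overlapped WT, and at 0.21, 0.16 and 0.28 for the regulatory particle they lay above it.

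**Figure D2:**
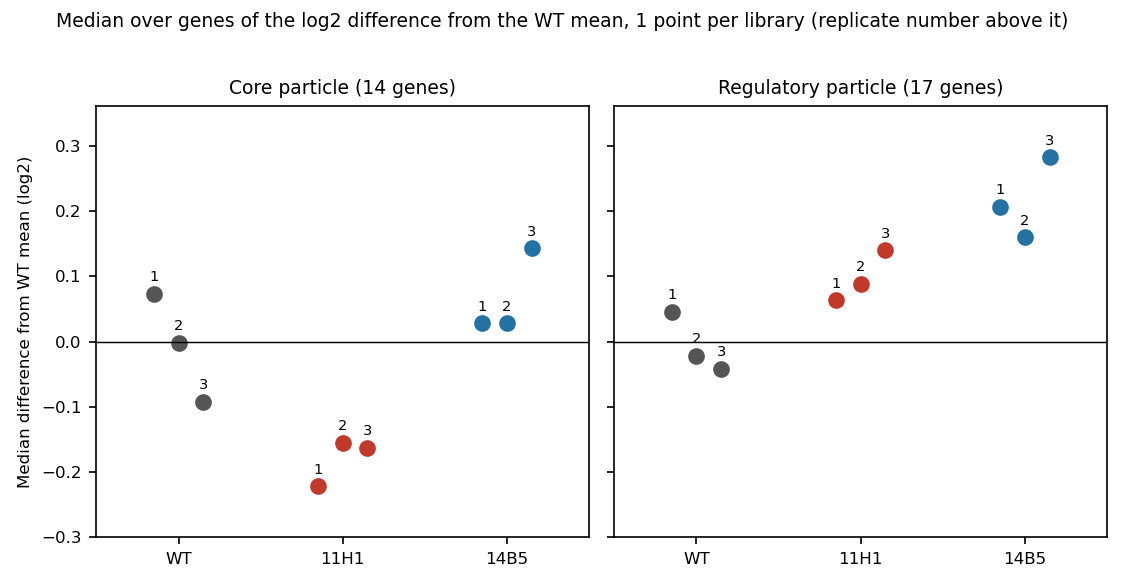
Median over genes of the log2 difference from the WT mean (vertical axis) in each library (points, numbered by replicate) of WT, 11H1 and 14B5, for 14 core and 17 regulatory particle genes. In the core panel the 11H1 libraries lie lowest, from −0.22 to −0.16, and in the regulatory panel all 6 KO libraries lie above the WT libraries.

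Of the 6 base ATPases, 3 rose in 11H1, where 31.8% of all genes tested did, and 3 in 14B5, where 24.9% did. *PSMC2* (ENSG00000161057.12, chr7:103344254-103369395, plus strand) read 74.9, 71.5 and 71.4 CPM in WT, 87.5, 84.6 and 92.7 CPM in 11H1 and 96.2, 89.5 and 95.2 CPM in 14B5. All 6 KO libraries were above all WT libraries, and the clones overlapped each other (log2FC 0.29 ± 0.050, adjusted p = 0.000297 in 11H1 and log2FC 0.35 ± 0.049, adjusted p = 0.000193 in 14B5). *PSMC6* (ENSG00000100519.12, chr14:52707172-52728587, plus strand) read 131, 131 and 129 CPM in WT, 131, 139 and 148 CPM in 11H1 and 169, 164 and 169 CPM in 14B5. It rose in 14B5 (log2FC 0.34 ± 0.042, adjusted p = 7.55e-05) and was not called in 11H1 (0.10, adjusted p = 0.0937), and the direct difference between the clones was itself called at −0.26 (adjusted p = 0.00059). *PSMC3* rose by 0.12 in 11H1, a call lost in 6 alternatives, and by 0.26 in 14B5. *PSMC1* rose by 0.15 in 11H1, a call lost in 3 alternatives. In 14B5 *PSMC1* had 0.18 (adjusted p = 0.0581), which was called in 8 alternatives. The direct difference of *PSMC1* between the clones did not pass (−0.049, adjusted p = 0.543). *PSMC4* and *PSMC5* stayed between −0.0077 and 0.070 in both clones and were not called.

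Among the base subunits that are not ATPases, *PSMD1* and *PSMD2*, the large scaffold subunits, rose in both clones. *PSMD1* (ENSG00000173692.13, chr2:231056864-231172827, plus strand) read 199, 200.5 and 222 CPM in WT, 256, 253 and 261 CPM in 11H1 and 254, 262 and 255 CPM in 14B5. The KO libraries held within 252.6 to 261.8 CPM and did not overlap WT (log2FC 0.32 ± 0.051, adjusted p = 0.000164 in 11H1 and log2FC 0.30 ± 0.052, adjusted p = 0.000836 in 14B5). *PSMD2*, the most highly read of the regulatory genes, rose by 0.21 and 0.20. The clones did not differ from each other in either gene past the threshold, with direct log2FC of 0.0042 ± 0.040 and −0.0015 ± 0.039. The ubiquitin receptor *PSMD4* was not called in either clone (0.091 and 0.12).

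In the lid, 2 of 8 genes rose and 1 fell in 11H1, smaller shares than the 31.8% and 32.8% of all genes tested. In 14B5, 5 of the 8 rose, where 24.9% of all genes did. *PSMD11* (ENSG00000108671.11, chr17:32444261-32483318, plus strand) read 174, 164 and 171 CPM in WT, 199.7, 209 and 206 CPM in 11H1 and 214, 204 and 212 CPM in 14B5. Both clones were above WT in every library (log2FC 0.28 ± 0.045, adjusted p = 0.000173 in 11H1 and log2FC 0.29 ± 0.046, adjusted p = 0.000461 in 14B5). *PSMD12* rose by 0.14 in 11H1 and 0.13 in 14B5, calls that were lost in 4 and 7 alternatives. *PSMD7*, *PSMD3* and *PSMD13* rose in 14B5 alone among the calls, by 0.28, 0.23 and 0.18, and the clones differed directly in each, by −0.25, −0.23 and −0.27 (adjusted p = 0.000318, 0.00129 and 0.000482). The call of *PSMD13* in 14B5 against WT was lost in 3 alternatives. *PSMD8* was the only regulatory gene that fell in a clone against WT, at −0.16 in 11H1, a call lost in 4 alternatives. *PSMD14*, the enzyme that cuts off the ubiquitin chain, was not called against WT (−0.069 in 11H1 and 0.10 in 14B5), although the clones differed from each other by −0.18 (adjusted p = 0.00256).

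Core genes are shorter than regulatory ones, with a median coding transcript of 1012.5 bases against 1991, and log2FC moved with length over the 46 genes. Spearman's rho between log2FC and length was 0.634 in 11H1 and 0.414 in 14B5 over 46 genes, which share their libraries, against 0.094 and −0.016 over all genes with a length. Libraries of one group also differed by length: WT replicate 3 was the lowest WT library for 13 of the 14 core genes, and its deviation from the WT mean had a rho of 0.409 with length over all genes. With a length trend taken out of every library, 66.9% of all genes tested were called in either direction in 11H1, 58.3% in 14B5 and 64.6% between the clones. Under this setting the core in 11H1 had 6 of 14 genes lower and 1 higher (median −0.057). The regulatory particle had 10 of 17 higher and none lower (median 0.12). In 14B5 the core then had 4 genes higher and none lower (median 0.076) and the regulatory particle 13 higher and none lower (median 0.19), and in the direct comparison 11 of the 14 core genes were lower in 11H1 (median −0.14). The order of core below regulatory particle thus remained in 11H1, while the fall of the core was smaller and *PSMB1* turned to a called rise of 0.098. Leaving out single libraries, the core genes called lower in 11H1 ranged from 7, without WT replicate 1 or without 11H1 replicate 1, to 12, without WT replicate 3. The regulatory genes called higher in 11H1 ranged from 4, without WT replicate 2, to 8, without WT replicate 1. Over these fits 57.2% to 64.3% of all genes were called in either direction.

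**Figure D3:**
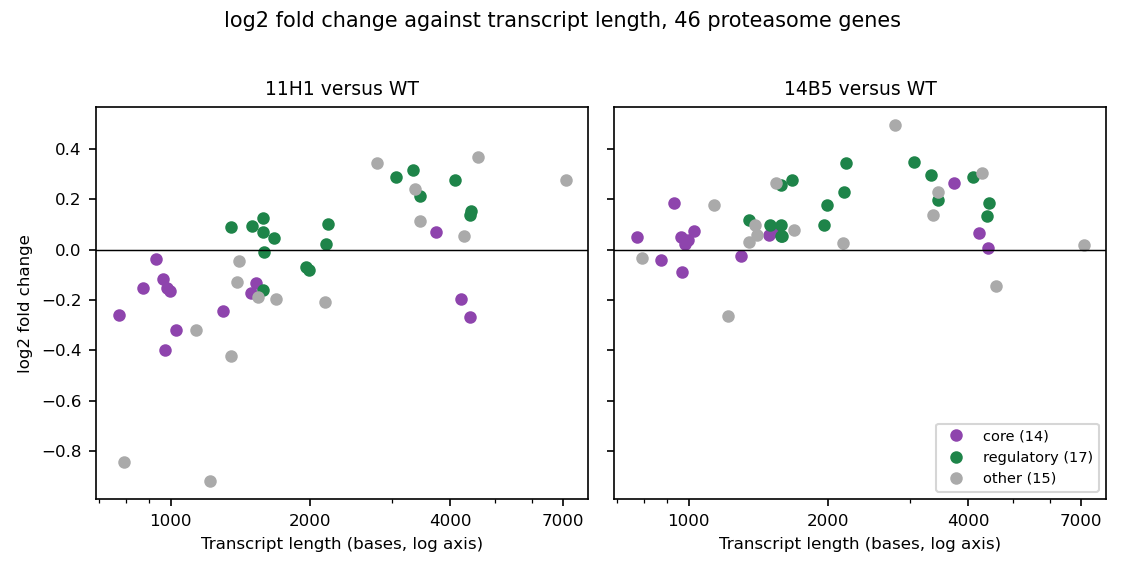
log2 fold change against WT (vertical axis) and longest coding transcript in bases (horizontal, log axis) of the 46 tested genes in 11H1 and 14B5, coloured as core (14), regulatory particle (17) or other (15). Shorter genes lie lower in 11H1, with Spearman's rho of 0.634 over 46 genes, and most regulatory points lie above the core points of similar length.

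The inducible beta genes had the largest falls of the family in 11H1. *PSMB9* and *PSMB8* lie head to head in the MHC class II region of chromosome 6, next to the *TAP* peptide transporter genes, and *PSMB10* lies on chromosome 16. All 3 fell in 11H1. *PSMB10* (ENSG00000205220.12, chr16:67934502-67937087, minus strand) read 35.7, 37.3 and 29.3 CPM in WT, 16.5, 19.0 and 18.7 CPM in 11H1 and 26.8, 29.5 and 30.1 CPM in 14B5. The 11H1 libraries were the lowest and shared no values with the other groups, and 14B5 overlapped WT through WT replicate 3. *PSMB9* (ENSG00000240065.8, chr6:32844136-32859585, plus strand) read 84.5, 79.9 and 68.4 CPM in WT, 39.7, 45.4 and 44.7 CPM in 11H1 and 70.5, 76.3 and 83.2 CPM in 14B5. *PSMB8* (ENSG00000204264.11, chr6:32840717-32844703, minus strand) read 104, 104 and 92.9 CPM in WT, 70.6, 77.5 and 75.5 CPM in 11H1 and 101, 98.4 and 112 CPM in 14B5. For both, 11H1 lay below every other library and 14B5 overlapped WT.

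Against WT, 11H1 had a log2FC of −0.92 ± 0.090 for *PSMB10* (adjusted p = 2.91e-06), −0.84 ± 0.078 for *PSMB9* (adjusted p = 1.92e-06) and −0.42 ± 0.057 for *PSMB8* (adjusted p = 4.27e-05). These are 0.529, 0.558 and 0.746 times the WT level. In 14B5 *PSMB10* fell by 0.26 on the log2 scale (adjusted p = 0.0286), and this call was lost in 5 of the alternatives, 4 of which left out 1 library (WT replicate 1 or 2, or 14B5 replicate 1 or 2, adjusted p 0.0543 to 0.132 over the 5). *PSMB9* (−0.034, adjusted p = 0.755) and *PSMB8* (0.032, adjusted p = 0.709) were not called in 14B5. The direct comparison of 11H1 with 14B5 called all 3, at −0.82 for *PSMB9*, −0.67 for *PSMB10* and −0.47 for *PSMB8*. With the length trend removed the 3 falls in 11H1 remained called, with a median of −0.70. *PSMB8* and *PSMB9* overlap each other and the RNA gene *PSMB8-AS1* in their annotated exons, and the labels and the study's methods name different library kits of which only the latter is stated to be stranded, so reads in the overlap may not be separated. *PSMB10* shares exon sequence with another annotated gene on its strand, and its counts are not whole in any library.

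**Figure D4:**
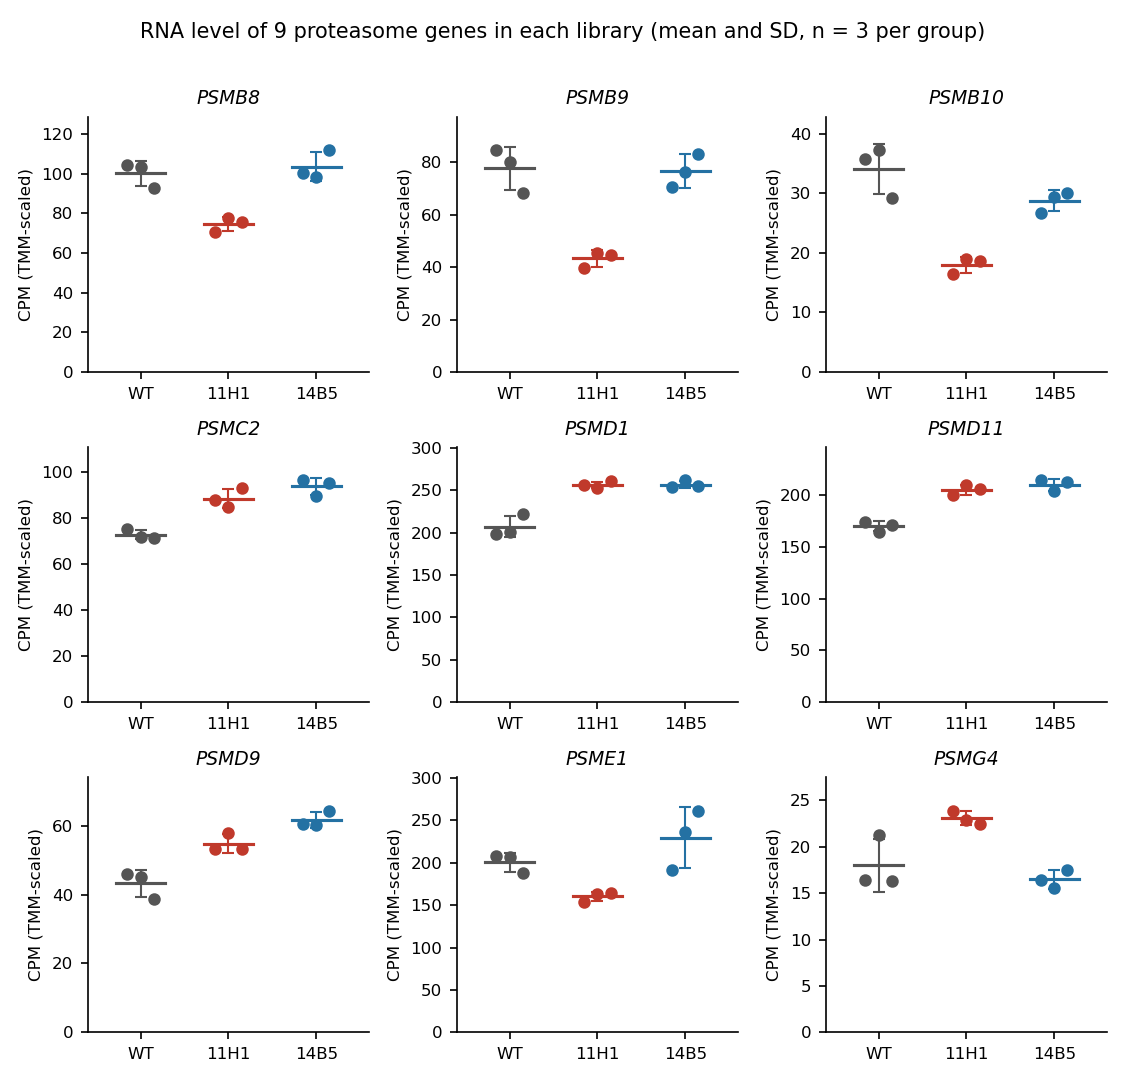
CPM in each library (points) of WT, 11H1 and 14B5 with the group mean (line) and SD (bar), n = 3, for the 3 inducible beta genes and 6 other proteasome genes; every vertical axis starts at 0. The 11H1 points of *PSMB9* lie at 39.7 to 45.4 CPM, below WT at 68.4 to 84.5, and the points of *PSMC2*, *PSMD1*, *PSMD11* and *PSMD9* in both clones lie above all WT points.

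Each inducible subunit replaces 1 constitutive subunit, so its level was also set against that partner per kb of transcript. *PSMB9* made up 32.8% to 33.4% of the sum of *PSMB9* and *PSMB6* in WT, 22.6% to 24.0% in 11H1 and 32.4% to 33.6% in 14B5. *PSMB10* made up 12.3% to 14.5% of its sum with *PSMB7* in WT, 7.96% to 8.53% in 11H1 and 11.0% to 11.3% in 14B5. *PSMB8* made up 36.2% to 37.8% of its sum with *PSMB5* in WT, 32.9% to 35.2% in 11H1 and 37.2% to 38.6% in 14B5. The 11H1 libraries were below the WT libraries for each pair, and 14B5 was below WT for *PSMB10* alone. A comparison of 3 libraries with 3 cannot go below p = 0.1 in an exact permutation test, so none was run on these shares. They are shares of RNA, whose scale rests on the transcript lengths used, and not of assembled particles.

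**Figure D5:**
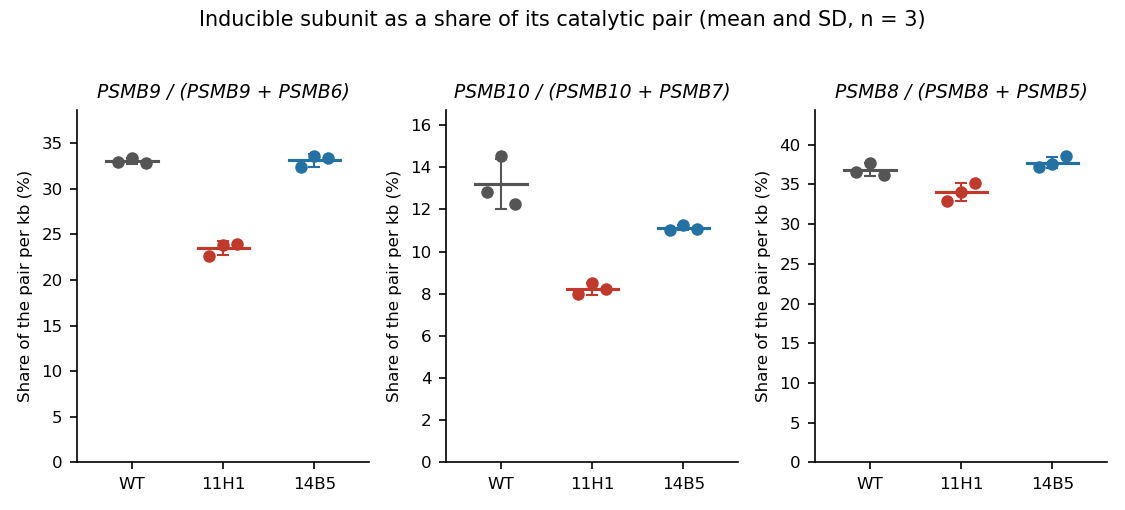
Share in percent of each inducible beta gene in the sum with its constitutive partner, per kb of transcript (vertical axis, from 0), in each library (points) of WT, 11H1 and 14B5 with mean and SD, n = 3. The *PSMB9* share is 22.6% to 24.0% in 11H1, below 32.8% to 33.4% in WT and 32.4% to 33.6% in 14B5.

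The activators did not move as a group. *PSME1* and *PSME2*, which form the interferon-responsive PA28 alpha-beta cap, lie on chromosome 14 within a short distance of each other. *PSME1* (ENSG00000092010.15, chr14:24136158-24138967, plus strand) read 208, 206 and 187 CPM in WT, 154, 163 and 164 CPM in 11H1 and 191, 236 and 261 CPM in 14B5. It fell in 11H1 without overlap (log2FC −0.32 ± 0.053, adjusted p = 0.00021), whereas the 14B5 libraries scattered from 191 to 261 CPM around WT (log2FC 0.18 ± 0.10, adjusted p = 0.152), and the clones differed directly by −0.51 (adjusted p = 0.000295). *PSME2* (ENSG00000100911.16, chr14:24143362-24147570, minus strand) read 139.7, 133 and 121 CPM in WT, 124, 128 and 127 CPM in 11H1 and 132, 134 and 149 CPM in 14B5. The groups overlapped and it was not called in either clone (−0.047 and 0.060). *PSME3*, the nuclear PA28 gamma, rose by 0.24 in 11H1 (adjusted p = 0.000298) and 0.14 in 14B5 (adjusted p = 0.0176), the latter call being lost in 4 alternatives. *PSME4*, which encodes PA200, rose in 11H1 alone (log2FC 0.27 ± 0.052, adjusted p = 0.000629), and the clones differed directly by 0.24 (adjusted p = 0.000585). *PSMF1* (ENSG00000125818.18, chr20:1113263-1189415, plus strand) read 192, 192 and 196 CPM in WT, 206, 201 and 192 CPM in 11H1 and 249, 243 and 231 CPM in 14B5. It rose in 14B5, whose libraries stood above all others (log2FC 0.30 ± 0.046, adjusted p = 0.000346), and was not called in 11H1 (0.055, adjusted p = 0.306).

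Among the chaperones that assemble the base, *PSMD9* had the largest rise of the family in 14B5. *PSMD9* (ENSG00000110801.13, chr12:121888731-121918297, plus strand) read 45.9, 45.1 and 38.8 CPM in WT, 53.2, 57.8 and 53.3 CPM in 11H1 and 60.5, 60.2 and 64.3 CPM in 14B5. The KO libraries were all above the WT libraries, and 14B5 was above 11H1 (log2FC 0.34 ± 0.067, adjusted p = 0.000727 in 11H1, log2FC 0.49 ± 0.068, adjusted p = 0.000181 in 14B5, and −0.17 between the clones, adjusted p = 0.0119). The call of *PSMD9* between the clones was lost without 11H1 replicate 1 (edgeR adjusted p = 0.0595). The counts of *PSMD9* are not whole in any library and its exons overlap 2 protein-coding genes on its strand, so part of its reads may be divided with them. *PSMD10*, also known as gankyrin, was the 1 gene called in opposite directions, lower in 11H1 (log2FC −0.19 ± 0.049, adjusted p = 0.00465) and higher in 14B5 (log2FC 0.27 ± 0.052, adjusted p = 0.00164), with a direct difference of −0.47 (adjusted p = 6.5e-06). *PSMD5* rose in 14B5 (0.23, adjusted p = 0.00683) and had 0.11 in 11H1 (adjusted p = 0.0666).

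The core assembly chaperones *PSMG1* and *PSMG2*, which act as a pair, fell in 11H1 and were not called in 14B5. *PSMG1* (ENSG00000183527.11, chr21:39174769-39183851, minus strand), on the same chromosome as *DYRK1A*, read 232, 233 and 226 CPM in WT, 194, 201 and 202 CPM in 11H1 and 243, 228 and 240.2 CPM in 14B5. Only 11H1 was apart from WT (log2FC −0.21 ± 0.043, adjusted p = 0.0012 in 11H1 and log2FC 0.024 ± 0.046, adjusted p = 0.679 in 14B5). *PSMG2* had −0.19 in 11H1 and 0.076 in 14B5. The other pair is *PSMG3* and *PSMG4*. *PSMG3* was not called in either clone (−0.13 and 0.10). *PSMG4* (ENSG00000180822.11, chr6:3231403-3303373, plus strand) read 16.4, 21.3 and 16.3 CPM in WT, 23.9, 22.8 and 22.5 CPM in 11H1 and 16.4, 15.5 and 17.5 CPM in 14B5. It rose in 11H1 (log2FC 0.37 ± 0.095, adjusted p = 0.00483), where the libraries lay just above WT replicate 2, the highest WT library. With *PSME4* it was 1 of the 2 genes higher in 11H1 than in 14B5 (log2FC 0.49, adjusted p = 2.29e-05).

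Set together as KO, with the difference between clones in the spread, the 6 libraries had 8 of 46 proteasome genes called against WT (17.4%, against 32.0% of all genes), all higher (background 14.3%) and none lower (background 17.7%). Of these, 6 belong to the regulatory particle, *PSMC2* (0.32), *PSMC3* (0.20), *PSMD1* (0.31), *PSMD2* (0.21), *PSMD11* (0.29) and *PSMD12* (0.14). The others were *PSMD9* (log2FC 0.43 ± 0.083, adjusted p = 0.00326) and *PSME3* (0.19). No core or inducible gene was called, with *PSMB10* at −0.54 (adjusted p = 0.0642). The calls of *PSMD12* and *PSMC3* were lost in 15 and 10 alternatives. Without WT replicate 1 or without WT replicate 2, 5 genes were called, where 21.7% and 21.1% of all genes were. A single fit of the 3 groups, which keeps the difference between clones out of the spread, called 22 of 46, of which 17 were higher and 5 lower. The same fit called 60% of all genes tested, so the proteasome share was again below that of all genes. An exact 2-sided permutation test was run on single genes over the 84 splits of 9 libraries, without adjustment. This test gave its smallest possible p, 0.0119, for *PSMC2*, *PSMD1*, *PSMD2*, *PSMD9*, *PSMD11*, *PSMD12* and *PSME3*. It takes the libraries as independent, though those of a clone share a founder, so this p does not measure an effect of the knockout. All 6 KO libraries stood above every WT library for 11 of the 46 genes, where 16.3% of all genes did so, and below for none, where 20.3% of all genes did.

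Promoter sequence was searched for the motifs of factors known to act on these genes. NFE2L1, also called NRF1, is known to raise proteasome transcription when proteolysis falls short, through antioxidant response elements with the core TGACNNNGC. A RefSeq promoter (GRCh38.p14, 250 bases before to 50 after the start) was at hand for 42 of the 48 genes, and not for *PSMA7*, *PSMB1*, *PSMB6*, *PSMB7*, *PSMD4* and *PSMG3*. Counting either strand, 15 of the 42 genes held this core in at least 1 promoter (35.7%), against 16.1% of 27305 genes in the table. CCAAT stood in 20 (47.6%, against 39.7%), and the cell cycle homology region, TTTGAA or TTCGAA, in 6 (14.3%, against 19.5%). The interferon-linked cores TTCNNNGAA (STAT sites) and GAAANNGAA (IRF sites), chosen after the data were seen, each stood in 8 (19.0%, against 9.38% and 9.86%). TTCNNNGAA and TTCGAA read the same on both strands, and matches of different motifs may overlap. A match marks letters in a window and says nothing of binding.

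Stretches are shown for *PSMD9*, the gene with the largest rise in KO, and *PSMB9*, one of the inducible genes that fell most in 11H1, because both hold the TGACNNNGC core, given in capitals on either strand. They are the longest runs before the RefSeq start that hold no annotated GENCODE v29 exon, at chr12:121888540-121888730 for *PSMD9* and chr6:32853979-32854147 for *PSMB9*, plus strand of GRCh38.p14, written 5′ to 3′.
PSMD9: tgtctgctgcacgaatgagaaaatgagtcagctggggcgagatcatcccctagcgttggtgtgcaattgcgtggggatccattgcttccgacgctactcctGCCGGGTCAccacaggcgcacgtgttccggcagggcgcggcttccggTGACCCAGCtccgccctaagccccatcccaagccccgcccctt
PSMB9: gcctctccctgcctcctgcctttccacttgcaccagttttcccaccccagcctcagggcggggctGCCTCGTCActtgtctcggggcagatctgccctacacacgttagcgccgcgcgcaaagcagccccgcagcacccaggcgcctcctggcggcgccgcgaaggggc
The *PSMD9* stretch holds the core at 2 places, whose first bases lie 149 and 102 bases before the start, and the *PSMB9* stretch holds it at 1 place, 148 bases before the start. *PSMD11*, which rose in both clones, held none of the 5 motifs in its window, and *PSMC2* held CCAAT and the IRF core but no TGACNNNGC core. *PSMD1*, which also rose in both clones, held 1 TGACNNNGC core in its window.

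Outside the family, the lists were described by their calls, beside 31.8% of all genes tested that rose and 32.8% that fell in 11H1, and 24.9% and 28.7% in 14B5. Of 11 other subunits and assembly or accessory factors, 5 rose and 2 fell in 11H1 (median 0.031) and 6 rose and none fell in 14B5 (median 0.17). The largest were *PITHD1* (0.38), *ECPAS* (0.32) and the small lid subunit *SEM1* (−0.28) in 11H1, and *FBXO7* (0.54), *PITHD1* (0.42) and *PAAF1* (0.24) in 14B5. The ubiquitin receptor *ADRM1* rose by 0.16 in 11H1 (adjusted p = 0.0283) and had 0.10 in 14B5 (adjusted p = 0.13). *POMP*, which matures the core, had 0.031 in 11H1 (adjusted p = 0.676) and rose by 0.19 in 14B5. Of 11 genes of transcriptional control, 4 rose and 5 fell in 11H1 and 4 rose and 1 fell in 14B5. The share that rose in 11H1 was near that of all genes, and the share called in 14B5 was below the 53.5% of all genes. *NFE2L1* itself read 168, 166 and 182 CPM in WT, 195, 189 and 187 CPM in 11H1 and 183, 201 and 201 CPM in 14B5 and was called higher in each clone (log2FC 0.15, adjusted p = 0.0171 in 11H1 and log2FC 0.16, adjusted p = 0.0316 in 14B5), but not in KO against WT (adjusted p = 0.0554). *MAFF*, a small MAF partner of the NFE2 factors, had the largest change of that list, at −1.92 in 11H1 and −2.07 in 14B5. It was followed by *MAFG* (0.51) and *MAFK* (0.47) in 11H1 and by *NFE2L2* (0.32) and *NFE2L3* (0.23) in 14B5.

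Of 18 genes that supply or deliver ubiquitin, 8 rose and 6 fell in 11H1 (median 0.023) and 9 rose and 2 fell in 14B5 (median 0.12). The share that fell in 11H1 was near the 32.8% of all genes, and the share that rose in 14B5 was above the 24.9%. Those that changed included *UFD1* (0.49), *UBQLN4* (0.43) and *RPS27A* (−0.43) in 11H1, and *FAF1* (0.33) and *NPLOC4* (0.29) in 14B5. Of 11 partners of the immunoproteasome in MHC class I peptide loading, 8 fell and 1 rose in 11H1 (median −0.45), and 4 fell and 1 rose in 14B5 (median −0.11). *HLA-C* (−0.79) and *HLA-B* (−0.60) were among those that fell in 11H1, and *ERAP1* (−0.31) was among those that fell in 14B5. *NLRC5*, an activator of MHC class I genes, was the 1 partner that rose in 11H1 (log2FC 0.19, adjusted p = 0.00419), fell in 14B5 (log2FC −0.36, adjusted p = 3e-04) and was higher in 11H1 than in 14B5 (log2FC 0.54, adjusted p = 5.61e-06). *HLA-B* and *HLA-C* share reads with close copies, so their counts are uncertain. *TAP1*, the neighbour of *PSMB9*, fell by 0.48 on the log2 scale in 11H1 (adjusted p = 5.13e-06) and rose by 0.20 in 14B5 (adjusted p = 0.00374), with a direct difference between the clones of −0.70 (adjusted p = 2.14e-07).

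The proteasome genes have 32 pseudogenes in the table, of which 3 passed 10 counts in a library, and together these held at most 1.04% of the family's reads. Counts that are not whole, a sign of reads divided between genes, occurred in 11 of the 48 genes. Annotated exons of another gene overlap those of 23 genes, on the opposite strand for 19, and reads there may be mixed unless strand was used in counting, which is not given in the sources used here.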

How the data were processed

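Expected counts from RSEM, as deposited by the authors, are reads per gene in which a read that fits several genes is shared among them, and they carry no scaling for depth or length. The submitters' processing notes name STAR 2.7.9a, Picard, RSEM and GRCh38, and the annotation release and strand setting are not given in the sources used here. Expected counts were rounded, scaled by TMM and tested with edgeR 4.0.16 (R 4.3.3, filterByExpr per comparison, quasi-likelihood F test, Benjamini-Hochberg over all genes, threshold 0.05). The 92 entries that are not genes were left out. Genes were placed and measured with GENCODE v29 on GRCh38 (96.6% matched). The 3-count limit covers counting error only, whereas the SD and the standard error of log2FC include the spread between libraries. The chi-square per gene between libraries of one group was 3.84 to 34.7 times what counting alone gives, so none was a copy. Values in every library are given for the 4 largest called changes of each comparison, the inducible and tissue subunits, *PSME1*, *PSME2* and *PSMG1*. Outside lists name members from the 3 largest called changes per clone, and some of these are not reported here. *ADRM1*, and *NLRC5* in 11H1, were named after their values were seen. Members and lists were chosen with earlier results of these data known. Alternatives used DESeq2 1.42.0, limma 3.58.1, other filters and scalings, the replicate number and each library left out, and 2 were added after the data were seen (transcript length and GC trends). The steps were also run on simulated data, in which far fewer genes changed than were called here. That run does not check the scaling under such broad change, and its outcome is not reported here. The study's text counts 5 KO libraries and 6 were analysed.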

Additional observations from a re-analysis of the deposited data

Results flagged for a closer look

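The difference of each clone from WT was itself compared through the direct edgeR test of 11H1 against 14B5, because a call in one clone and not in the other does not show that they differ. It called 34 of the 46 tested proteasome genes (73.9%, against 63.7% of all genes tested). Of the genes given with all library values, or called in opposite directions in the clones, 11 were among them. The log2 fold changes of 11H1 relative to 14B5 were −0.82 for *PSMB9*, −0.67 for *PSMB10* and −0.47 for *PSMB8*, all inducible beta subunits. The activator *PSME1* differed by −0.51 and remained called under every alternative, with log2 fold changes from −0.635 to −0.389. *PSMD10*, lower than WT in 11H1 and higher than WT in 14B5, differed by −0.47. Smaller differences were −0.33 for *PSMA3*, −0.26 for *PSMF1*, −0.26 for *PSMC6*, −0.25 for *PSMG1* and −0.17 for *PSMD9*, whose call was lost without 11H1 replicate 1. *PSMG4* differed the other way, by 0.49. Groups of 3 libraries are too small for a single library to be singled out by its distance from the others.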

How the results depend on the processing

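In 11H1 and in 14B5 against WT, and in 11H1 against 14B5, the numbers of proteasome genes called stayed within 1.5 times under every alternative except the single lower call of 14B5 (*PSMB10*), which was 0 under the replicate block and 0 to 1 without single libraries. For KO against WT, 5 genes were called, all higher, under the replicate block, where 23.1% of all genes were. A single fit of 3 groups called 22 (17 higher and 5 lower), where 60% of all genes were called. Without single libraries 5 to 8 were called, 5 to 8 higher and 0 to 1 lower. One gene was lower by the DESeq2 Wald test and 1 with the transcript length trend removed. Removing that trend moved the median log2 fold change of 11H1 against WT to 0.0113 and that of 11H1 against 14B5 to −0.141, and turned *PSMB1* in 11H1 to 0.0984 (adjusted p = 0.0326), its one called reversal. The cause was not tested. Same-numbered libraries deviated together no more than others (correlations −0.145 to 0.0581 for 9 pairs with the same number, −0.111 to 0.141 for 18 with different numbers). No pairing by number was thus seen, but so few pairs cannot show whether same-numbered libraries were prepared together.

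Removing the length trend left the core genes of 11H1 at 6 lower and 1 higher, where 66.9% of all genes were called in either direction. Of the 3266 values of single genes under the alternatives, called or not, 103 had the opposite sign from the reported value, and 1 of these was the called reversal of *PSMB1*. At 32347779 counts or more per library, *PSMA8* and *PSMB11* had too few reads to be tested, and the fewest expected counts of a tested gene in a library were 614 for *PSMB10* and 670 for *PSMG4*.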
